A study of Sus scrofa with 64 samples.

Results

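The transcripts that 48 h without feed changed in the same direction in suckling and in weaned piglets were followed by RNA-seq of mucosa scraped from the middle of the jejunum. All 64 libraries of the study were used, each from 1 female piglet of a Large White x Norwegian Landrace cross (TN20). The fasted piglets of 4 weeks (16) were moved to a separate pen on the farm of birth, while the fed piglets of 4 weeks (16) stayed with the sow and drank sow's milk. The fasted and fed piglets of 6 weeks (16 each) had gone to a research facility at 4 weeks of age, were housed in pairs and ate a standard weaning diet for the weeks before the test. Fasted animals had water at both ages, and no creep feed had been given before weaning. The mean of the fasted groups was set against the mean of the fed groups, and each age was tested by itself in the same model. A gene was called shared when its fasted-over-fed difference passed an adjusted p of 0.05 at 4 weeks and again at 6 weeks with the same sign (edgeR quasi-likelihood test, Benjamini-Hochberg over all genes tested). By this rule 2118 of 14062 genes tested were shared, of which 1120 rose and 998 fell. The comparisons at 4 and 6 weeks have no piglet in common, but age, diet, housing and site changed together between them, so these cannot be told apart. Within the 4-week comparison, lack of feed went together with leaving the sow and with the separate pen. These cannot be told apart either.

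The jejunum absorbs most of the fat, sugar and peptides of a meal. Its enterocytes rebuild absorbed fatty acids into triglyceride and export it in chylomicrons, lipoproteins that carry apolipoproteins such as APOA4. When feed is absent, insulin falls and FOXO transcription factors enter the nucleus, PPAR alpha is activated by fatty acids, and glucocorticoids rise. Genes for fatty acid and sterol synthesis, which the SREBP factors drive in the fed state, are known to be lower in the fasted liver, and the gut epithelium loses mass.

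Each library held 18774144 to 21159989 counts on genes. No pair of libraries within a group had identical counts. Absorptive enterocyte markers, 18 of 21 of which had an identifier, summed to 19417 to 133380 CPM, the scaled count of a gene as a share of its library, over the 64 libraries. The extraction text speaks of muscle where the label says scraping of the jejunum. Skeletal muscle markers, 5 of 12 with an identifier, summed to 1.27 to 61.4 CPM. Among them DES, also a smooth muscle marker, reached 58.8 CPM in fed 4-week pigs. MYH1, MYH2, MYH4, MYH7 and TTN had no identifier, so this sum says little about skeletal muscle. Fasted 4-week pigs 1, 28 and 32 were known from earlier work on these counts to have the lowest quality weights. Without them 1097 genes rose and 1089 fell at both ages. Because the tissue is a mixture, fewer cells of a type and less RNA per cell cannot be told apart in any result given here. CPM values are scaled by TMM factors and not by transcript length, so levels of different genes are not compared.

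At 4 weeks 4768 genes rose (33.9% of those tested) and 4141 fell (29.4%), 63.4% in all. At 6 weeks 3197 rose (22.7%) and 2588 fell (18.4%), 41.1% in all. The shared rises were 7.96% and the shared falls 7.1% of all genes tested. Among genes that rose at 4 weeks 23.5% also rose at 6 weeks, which is near the 22.7% of all genes that rose at 6 weeks. Among genes that fell at 4 weeks 24.1% also fell at 6 weeks, where 18.4% of all genes did. Calls in opposite directions were made for 1606 genes, 11.4% of those tested, of which 860 rose at 4 weeks and fell at 6 weeks and 746 did the reverse. Of the 3724 genes called at both ages 56.9% had the same sign. Across all genes the log2 fold changes of the 2 ages had a Pearson r of 0.03 and a Spearman rho of 0.05, given as a description since genes are not independent replicates.

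The contrast averaged over ages called more genes than were shared. It had 4688 genes higher (33.3%) and 3562 lower (25.3%) in fasted piglets, 58.7% in all. Of the 4688 higher genes 1120 were shared, 2194 passed at 4 weeks and not at 6, 926 passed at 6 weeks and not at 4, 281 were called in opposite directions and 167 passed at neither age. Of the 3562 lower genes 998 were shared, 1830 passed at 4 weeks and not at 6, 469 passed at 6 weeks and not at 4, 148 had opposite calls and 117 passed at neither age. A call on the average of the ages was therefore a shared call for 23.9% of higher and 28% of lower genes.

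Most shared changes were small. The median shared rise had a log2 fold change of 0.53 at 4 weeks and 0.45 at 6 weeks, and the median shared fall had -0.66 at 4 weeks and -0.47 at 6 weeks, where the median over all genes tested was 0.03 at 4 weeks and 0.01 at 6 weeks. At least 2-fold at both ages were 58 rises and 78 falls. The size of the response differed between the ages by the test of that difference for some shared genes: 185 rises and 313 falls were larger at 4 weeks, and 44 rises and 32 falls were larger at 6 weeks. For 891 rises and 653 falls that difference missed the threshold, which does not show that the responses were equal. Near the threshold, the larger of the 2 adjusted p-values was 0.04 to 0.05 for 134 shared genes, and 0.05 to 0.06 for 108 genes of the same sign just outside. Scaling by library size alone, without TMM factors, moved the median of all genes at 4 weeks to 0.25 and gave 1398 shared rises and 681 shared falls, so that 67.2% of shared genes were rises in place of 52.9%.

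**Figure D1:**
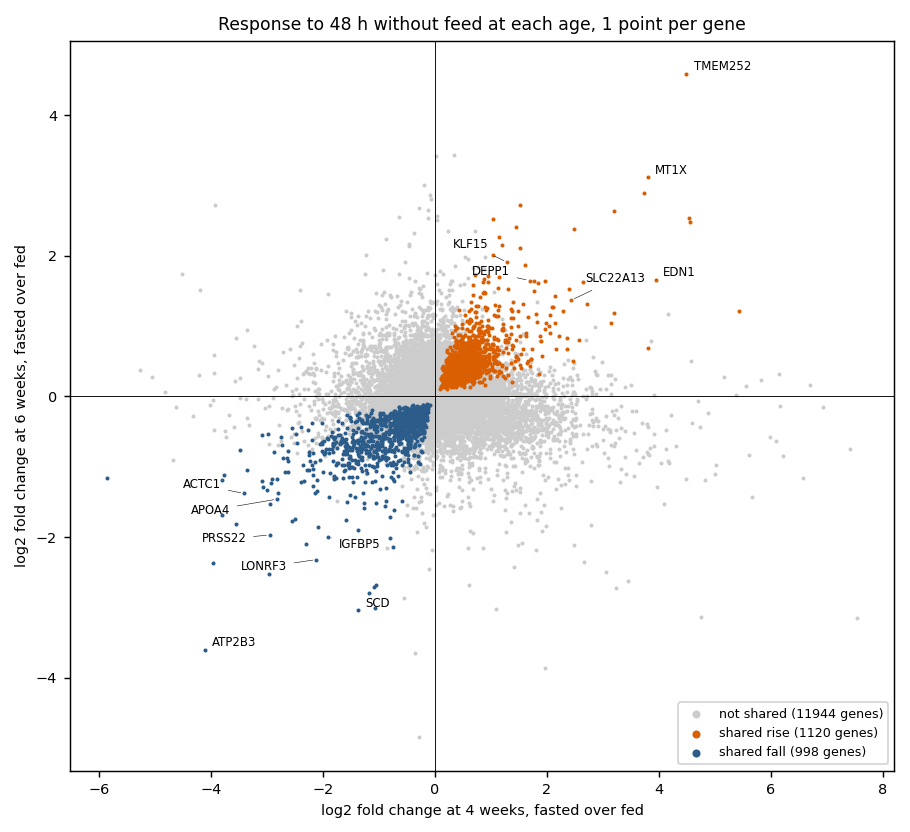
Each point is 1 of the 14062 genes tested, with its log2 fold change, fasted over fed, at 4 weeks on the horizontal axis and at 6 weeks on the vertical axis. The 1120 shared rises (orange) lie in the upper right and the 998 shared falls (blue) in the lower left, while the cloud as a whole has a Pearson r of 0.03.

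For 8 genes all 16 fasted piglets lay beyond all 16 fed piglets at both ages, 2 above (0.0142% of genes tested) and 6 below (0.0427%). They were picked for this separation, so their values are a description. UNKL, a RING finger protein gene, had 5.52 to 11.7 CPM (median 6.73) in fasted 4-week pigs, against 2.94 to 5.47 CPM (median 3.66) in fed 4-week pigs. Its fasted 6-week pigs had 4.87 to 8.94 CPM (median 6.71), against 2.52 to 4.47 CPM (median 3.71) in fed 6-week pigs. UNKL (chromosome 3, 40444997 to 40513050 in the RefSeq annotation of Sscrofa11.1) thus had medians in fasted and in fed piglets that were nearly alike at the 2 ages, with log2 fold changes of 0.84 ± 0.11 (SE) at 4 weeks and 0.85 ± 0.11 at 6 weeks. On the lower side stood SMG5, a factor of nonsense-mediated mRNA decay, TPM4, a tropomyosin of the actin cytoskeleton, PFKP, an isoform of phosphofructokinase, NID2, a basement membrane nidogen, and APOA4. PFKP had 98.2 to 162 CPM (median 120) in fasted 4-week pigs and 224 to 420 CPM (median 300) in fed 4-week pigs. In fasted 6-week pigs PFKP had 71.8 to 127 CPM (median 103), and in fed 6-week pigs 141 to 249 CPM (median 191). The PFKP ranges did not touch at either age, and its log2 fold changes were -1.33 ± 0.08 at 4 weeks and -0.89 ± 0.08 at 6 weeks. Averaged over the ages, SMG5 changed by -0.79 ± 0.05 and TPM4 by -0.94 ± 0.06 on the log2 scale. The other 2 of the 8 are identifiers with no symbol in the tables used.

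The shared rises with the largest change at their weaker age were TMEM252, MT1X, EDN1, DEPP1, GSDME, EDN2, FGF19, GPR15LG, SLC22A13, STC2, KLF15 and CHAC1. They include a metallothionein, the endothelins EDN1 and EDN2, a bile acid hormone and genes known to respond to FOXO factors or glucocorticoids. Being named for their size, they are described and not tested again.

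TMEM252 encodes a membrane protein and lies on chromosome 1 at 221842979 to 221848667. It had 0.0374 to 10.8 CPM (median 1.49) in fasted 4-week pigs and 0 to 0.302 CPM (median 0.0522) in fed 4-week pigs. In fasted 6-week pigs it had 1.45 to 27.5 CPM (median 10.6), against 0.0463 to 1.4 CPM (median 0.387) in fed 6-week pigs. The groups did not overlap at 6 weeks, and 12 of 16 fasted pigs lay above every fed pig at 4 weeks. Its log2 fold changes of 4.49 ± 0.60 at 4 weeks and 4.59 ± 0.48 at 6 weeks rest at 4 weeks on a fed level near 0, and with the ages fitted apart the filter on low counts dropped it at 4 weeks.

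MT1X, a metallothionein that binds zinc and copper, had 14.7 to 81 CPM (median 32.3) in fasted 4-week pigs and 0.829 to 5.78 CPM (median 2.18) in fed 4-week pigs. For MT1X, fasted 6-week pigs had 7.14 to 87.5 CPM (median 31.9), and fed 6-week pigs 0.809 to 14.9 CPM (median 2.19). All fasted piglets stood above all fed ones at 4 weeks and 14 of 16 did at 6 weeks, with log2 fold changes of 3.80 ± 0.40 and 3.12 ± 0.38. MT3, a related metallothionein on chromosome 6 (18634735 to 18636134), changed by 3.19 ± 0.48 at 4 weeks and 2.64 ± 0.45 at 6 weeks on the log2 scale. Metallothionein genes are close copies of each other, and how the counting shared reads among them is not stated, so the split between MT1X and MT3 is uncertain.

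The endothelins are vasoactive peptides that also act on gut muscle. EDN1, on chromosome 7 at 8752018 to 8758354, had 7.26 to 27.9 CPM (median 13.4) in fasted 4-week pigs and 0.244 to 1.77 CPM (median 0.879) in fed 4-week pigs. At 6 weeks fasted pigs had 0.824 to 13.5 CPM (median 3.39) and fed pigs 0.333 to 3.46 CPM (median 1.2). The 4-week groups were apart and the 6-week groups overlapped, with 8 of 16 fasted pigs above every fed pig. The log2 fold change of EDN1 was 3.95 ± 0.30 at 4 weeks and 1.66 ± 0.27 at 6 weeks. EDN2, which is known from the mouse gut epithelium, had 3.09 to 25.3 CPM (median 16.2) in fasted 4-week pigs and 1.59 to 8.9 CPM (median 4.3) in fed 4-week pigs. Fasted 6-week pigs had 3.24 to 15.9 CPM of EDN2 (median 6.46), against 0.555 to 5.66 CPM (median 1.97) in fed 6-week pigs. Its log2 fold changes of 1.84 ± 0.25 and 1.62 ± 0.26 differed between ages by less than the test could call (adjusted p = 0.62, edgeR).

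DEPP1, a gene known to respond to FOXO factors, had 18.2 to 178 CPM (median 50.3) in fasted 4-week pigs and 13.9 to 35.6 CPM (median 18.4) in fed 4-week pigs. At 6 weeks its level was 13.1 to 82.6 CPM (median 25.9) in fasted pigs and 3.91 to 36.6 CPM (median 6.19) in fed pigs. Medians were lower at 6 than at 4 weeks in both feeding states, while the log2 fold changes were 1.69 ± 0.29 and 1.65 ± 0.29. KLF15, a transcription factor of fasting metabolism in liver and muscle, had 0.614 to 11 CPM (median 1.38) in fasted 4-week pigs, against 0.294 to 2.17 CPM (median 0.894) in fed 4-week pigs. In fasted 6-week pigs KLF15 had 1.44 to 12.2 CPM (median 5.01), and in fed 6-week pigs 0.523 to 4.17 CPM (median 1.36). Only 3 of 16 fasted pigs exceeded every fed pig at 4 weeks and 11 did at 6 weeks, and the log2 fold changes were 1.29 ± 0.31 and 1.91 ± 0.30.

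FGF19, a hormone by which the gut lowers bile acid synthesis in the liver, lies on chromosome 2 at 3583027 to 3586985. It had 1.42 to 20.3 CPM (median 6.32) in fasted 4-week pigs and 0.385 to 7.38 CPM (median 2.57) in fed 4-week pigs. At 6 weeks fasted pigs had 0 to 9.34 CPM (median 0.414) and fed pigs 0 to 0.909 CPM (median 0.173). The 6-week groups overlapped widely, and 5 of 16 fasted pigs lay above the fed range. Its log2 fold changes were 1.51 ± 0.46 and 2.12 ± 0.57, but several settings end the shared call. At 6 weeks limma-voom gave 1.17 with an adjusted p of 0.24, and with that age fitted alone the filter dropped the gene. With the marker covariates the estimates were 0.31 at 4 weeks (adjusted p = 0.71) and 1.34 at 6 weeks (adjusted p = 0.083), so it passed at neither age. It was the 1 shared member of 9 tested in the bile acid and FXR list.

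SLC22A13, an organic anion and urate transporter, had medians of 75.2 CPM in fasted and 11.6 CPM in fed 4-week pigs, and of 143 CPM in fasted and 33.4 CPM in fed 6-week pigs. All 16 fasted pigs lay above the fed median at each age, with log2 fold changes of 2.43 ± 0.40 and 1.37 ± 0.39. GPR15LG, the ligand of a T cell homing receptor, had medians of 2.59 CPM in fasted and 0.721 CPM in fed 4-week pigs. At 6 weeks its medians were 15 CPM in fasted and 5.85 CPM in fed pigs, so the fed level at 6 weeks exceeded the fasted level at 4 weeks, while fasting changed it by 2.15 ± 0.35 and 1.43 ± 0.31 on the log2 scale. CHAC1, which breaks down glutathione, changed by 2.09 ± 0.29 and 1.27 ± 0.29, and STC2, a secreted stanniocalcin, by 1.39 ± 0.31 and 1.35 ± 0.32. GSDME, a gasdermin that forms membrane pores, changed by 1.97 ± 0.37 and 1.65 ± 0.37. The GSDME call was lost at 4 weeks with smooth muscle and B cell markers as covariates (adjusted p = 0.054).

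**Figure D2:**
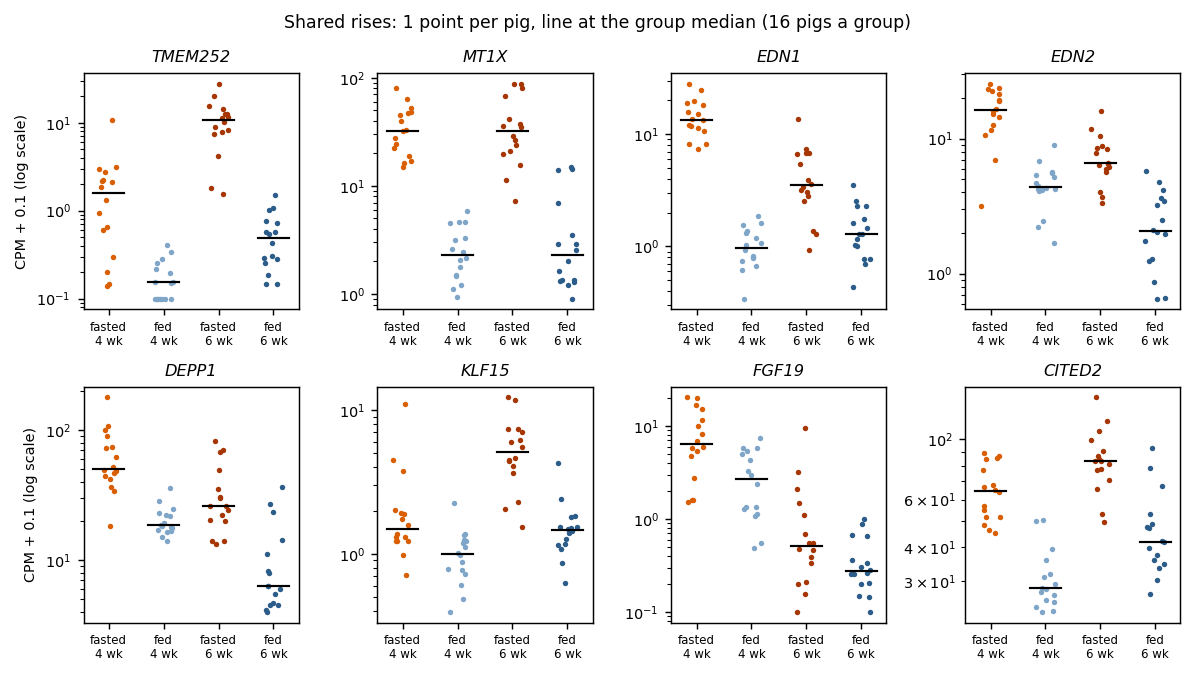
Levels of 8 shared rises in CPM plus 0.1 on a log scale, with 1 point per pig, 16 pigs a group and a line at the group median, fasted left of fed at each age. MT1X medians were 32.3 and 31.9 CPM in fasted and 2.18 and 2.19 CPM in fed piglets at 4 and 6 weeks, while EDN1 stood further apart at 4 weeks than at 6.

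Genes of insulin signalling and FOXO targets were the pathway list with the largest share of shared rises. Of its 22 tested members 6 rose at both ages (27.3%, against 7.96% of all genes) and 1 fell (4.55%, against 7.1%). Opposite calls were made for 5, where 11.4% of all genes had them. At 4 weeks 9 rose and 7 fell, where 33.9% and 29.4% of all genes did. At 6 weeks 14 rose and 3 fell, where 22.7% and 18.4% of all genes did. The list's median log2 fold change was -0.03 at 4 weeks and 0.37 at 6 weeks, so at 4 weeks the middle of the list lay near 0. The shared rises were KLF15, CITED2, IRS2, FBXO32, PIK3IP1 and PIK3R1. CITED2, a transcriptional co-regulator, had 45.1 to 89.1 CPM (median 64.5) in fasted 4-week pigs and 23.1 to 50.5 CPM (median 28.2) in fed 4-week pigs. For CITED2, fasted 6-week pigs had 49.7 to 143 CPM (median 83.1), and fed 6-week pigs 26.8 to 93.1 CPM (median 41.9). Every fasted pig lay above the fed median of its age, and the log2 fold changes were 1.06 ± 0.14 and 0.85 ± 0.14. FBXO32, a ubiquitin ligase subunit known from muscle wasting, had medians of 14.6 CPM in fasted and 8.4 CPM in fed 4-week pigs, and of 10.9 CPM in fasted and 4.24 CPM in fed 6-week pigs. IRS2, an insulin receptor substrate that FOXO factors raise, changed by 0.60 ± 0.21 and 1.21 ± 0.21, and its 4-week call was lost without the 3 pigs of low weight (adjusted p = 0.051, edgeR). PIK3R1 and PIK3IP1, which hold back PI3 kinase, rose by 0.21 and 0.37 at 4 weeks and by 0.28 and 0.53 at 6 weeks on the log2 scale. TRIB3, a pseudokinase that binds AKT, fell by 1.29 and 0.64. INSR, the insulin receptor, was not shared, with log2 fold changes of -0.96 ± 0.18 at 4 weeks and 1.27 ± 0.19 at 6 weeks.

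Of 17 tested PPAR and fasting targets 3 rose at both ages (17.6%, against 7.96% of all genes), 2 fell (11.8%, against 7.1%) and 3 had opposite calls, where 11.4% of all genes did. The count of falls is near the share over all genes. PLIN2, which coats lipid droplets, had 57 to 262 CPM (median 133) in fasted 4-week pigs and 28.4 to 147 CPM (median 70.5) in fed 4-week pigs. Its level in fasted 6-week pigs was 26.1 to 103 CPM (median 60.6), against 16.3 to 55.7 CPM (median 24.3) in fed 6-week pigs, and its log2 fold change averaged over the ages was 0.97 ± 0.14. ANGPTL4, a secreted inhibitor of lipoprotein lipase, changed by 0.74 ± 0.24 and 0.81 ± 0.24, and TXNIP, which restrains glucose uptake, by 0.92 ± 0.16 and 0.49 ± 0.16. The ANGPTL4 call at 4 weeks was lost with the marker covariates (0.42, adjusted p = 0.30). CIDEC, a lipid droplet protein, fell by 1.83 and 0.71, and PPARD, a fatty acid receptor, fell by 0.80 and 0.43. PDK4, which shuts pyruvate out of the citric acid cycle, changed at 6 weeks by 3.43 ± 0.24 and at 4 weeks by 0.33 ± 0.22 (adjusted p = 0.17, edgeR). Its medians were 92.9 CPM in fasted and 82.7 CPM in fed 4-week pigs, and 66.8 CPM in fasted and 6.66 CPM in fed 6-week pigs, so the fed 6-week pigs stood alone with a low level. CPT1A, which brings fatty acids into mitochondria, changed by -0.24 ± 0.14 at 4 weeks (adjusted p = 0.12) and by 0.88 ± 0.14 at 6 weeks. Mitochondrial fatty acid oxidation and ketogenesis had no shared rise among 19 tested members, where 7.96% of all genes rose at both ages. Its 1 shared fall (5.26%, near the 7.1% of all genes) was ACADM, a medium-chain dehydrogenase, by 0.83 and 0.75. At 4 weeks 12 of the 19 fell and 2 rose, where 29.4% and 33.9% of all genes did. At 6 weeks 7 rose and 2 fell, where 22.7% and 18.4% of all genes did. Opposite calls were made for 5, where 11.4% of all genes had them.

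Gluconeogenesis and glutamine use had 3 shared rises (14.3%, against 7.96% of all genes) and no shared fall among 21 tested members, with median log2 fold changes of 0.20 at 4 weeks and 0.24 at 6 weeks. PC, pyruvate carboxylase, had 12.1 to 79.8 CPM (median 47) in fasted 4-week pigs and 17.5 to 28.1 CPM (median 22.7) in fed 4-week pigs. Fasted 6-week pigs had 14.2 to 90.3 CPM of PC (median 54.5), and fed 6-week pigs 12 to 43 CPM (median 34.4). Fasted pigs exceeded the whole fed range in 14 of 16 cases at 4 weeks and in 12 of 16 at 6 weeks, and the log2 fold changes were 1.03 ± 0.16 and 0.73 ± 0.16. OAT, ornithine aminotransferase, which links ornithine to glutamate and proline, changed by 0.77 ± 0.18 and 1.29 ± 0.18. With the marker covariates OAT no longer passed at 4 weeks (0.34, adjusted p = 0.20). PCK1, the PEP carboxykinase of gluconeogenesis, had medians of 718 CPM in fasted and 730 CPM in fed 4-week pigs and of 1843 CPM in fasted and 115 CPM in fed 6-week pigs. Its log2 fold change was 0.01 ± 0.35 at 4 weeks and 3.42 ± 0.38 at 6 weeks, and the difference passed the test (adjusted p = 7.6e-08).

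The shared falls with the largest change at their weaker age were ATP2B3, LONRF3, PRSS22, IGFBP5, ACTG2, APOA4, TUBB2B, ADAMTS1, ACTC1, MMP13, FN1 and SCD. In each of these 12 genes all 16 fasted piglets lay below the fed median at both ages. ATP2B3, a plasma membrane calcium pump on chromosome X (124318874 to 124357653), had 0 to 1.01 CPM (median 0.19) in fasted 4-week pigs and 0.624 to 11.3 CPM (median 3.08) in fed 4-week pigs. At 6 weeks fasted pigs had 0 to 2.39 CPM (median 0.614), against 1.07 to 36.5 CPM (median 6.75) in fed 6-week pigs. Below every fed pig lay 15 of 16 fasted pigs at 4 weeks and 11 of 16 at 6 weeks, and the log2 fold changes were -4.12 ± 0.51 and -3.60 ± 0.45. PRSS22, a serine protease, had 1.78 to 5.84 CPM (median 2.73) in fasted 4-week pigs and 5.33 to 58 CPM (median 15.4) in fed 4-week pigs. For PRSS22, fasted 6-week pigs had 2.35 to 7.25 CPM (median 4.69), and fed 6-week pigs 8.19 to 47.7 CPM (median 14.5). The 6-week groups did not overlap, and the log2 fold changes were -2.95 ± 0.25 and -1.97 ± 0.24. IGFBP5, an IGF binding protein of the stroma and muscle, had medians of 3.57 CPM in fasted and 15.3 CPM in fed 4-week pigs, and of 3.79 CPM in fasted and 16.6 CPM in fed 6-week pigs. Its medians in the same feeding state were close at the 2 ages. TUBB2B, a beta tubulin with close paralogs, changed by -1.89 ± 0.18 and -1.43 ± 0.18, and LONRF3, a RING finger protein, by -2.12 ± 0.31 and -2.32 ± 0.32. The extracellular proteases ADAMTS1 and MMP13 changed by -1.43 ± 0.27 and -1.38 ± 0.31 at 4 weeks and by -1.43 ± 0.28 and -1.90 ± 0.32 at 6 weeks. With the marker covariates IGFBP5, ADAMTS1 and MMP13 no longer passed at 4 weeks, where their log2 fold changes shrank to -0.41, -0.31 and -0.73.

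Chylomicron assembly and triglyceride synthesis had 6 shared falls (26.1%, against 7.1% of all genes) and 1 shared rise (4.35%, against 7.96%) among 23 tested members. At 4 weeks 17 of the 23 fell, where 29.4% of all genes did, and 2 rose, with a median log2 fold change of -1.10. At 6 weeks 7 fell, where 18.4% of all genes did, and 3 rose, with a median of -0.09. The summed absorptive enterocyte markers had medians of 71697 CPM in fasted and 112044 CPM in fed 4-week pigs, and of 76702 CPM in fasted and 65191 CPM in fed 6-week pigs. That sum was lower in fasted pigs at 4 weeks and higher at 6 weeks, and its part in the lipid genes was not tested. APOA1 and FABP2 belong to both lists, so the sum is not separate from the lipid genes. Gene by gene, the 18 tested enterocyte markers had median log2 fold changes of 0.08 at 4 weeks and 0.10 at 6 weeks. At 4 weeks 4 of them rose and 6 fell, where 33.9% and 29.4% of all genes did. APOA4, on chromosome 9 at 44201587 to 44204072, had 1989 to 10007 CPM (median 4653) in fasted 4-week pigs and 18919 to 59473 CPM (median 35851) in fed 4-week pigs. Fasted 6-week pigs had 1577 to 3724 CPM of APOA4 (median 2412), and fed 6-week pigs 4065 to 14394 CPM (median 5224). The groups stood apart at each age although the fed median at 6 weeks lay within the fasted range at 4 weeks, and the log2 fold changes were -2.82 ± 0.19 and -1.46 ± 0.18. Its neighbour APOC3 (44211171 to 44213538), an apolipoprotein that slows the clearance of triglyceride, had medians of 1593 CPM in fasted and 14562 CPM in fed 4-week pigs. At 6 weeks the APOC3 medians were 536 CPM in fasted and 1194 CPM in fed pigs, and the log2 fold change averaged over the ages was -2.16 ± 0.17. The acyl-CoA synthetase ACSL3 and the acyltransferase AGPAT2 fell by 2.56 and 1.44 at 4 weeks and by 0.45 and 0.36 at 6 weeks, and ACSL5 was also a shared fall. DGAT2, which makes triglyceride from diacylglycerol, was not shared: its medians were 73.4 CPM in fasted and 1393 CPM in fed 4-week pigs, and 98.6 CPM in fasted and 76 CPM in fed 6-week pigs.

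Fatty acid synthesis and desaturation had 8 shared falls and no shared rise among 16 tested members (50%, against 7.1% of all genes). The median log2 fold change was -0.44 at 4 weeks and -0.47 at 6 weeks. ELOVL6, which lengthens palmitate to stearate, had 20.1 to 63.8 CPM (median 34.4) in fasted 4-week pigs and 170 to 450 CPM (median 247) in fed 4-week pigs. In fasted 6-week pigs it had 15.4 to 36.8 CPM (median 25.2), and in fed 6-week pigs 34.7 to 78.9 CPM (median 54.4). The 4-week groups did not overlap, 15 of 16 fasted 6-week pigs lay below every fed one, and the log2 fold changes were -2.94 ± 0.15 and -1.23 ± 0.14. SCD, which desaturates stearate to oleate, had 1.9 to 9.07 CPM (median 4) in fasted 4-week pigs and 3.91 to 21.4 CPM (median 9.74) in fed 4-week pigs. For SCD, fasted 6-week pigs had 2.98 to 12.8 CPM (median 6.43), and fed 6-week pigs 19.9 to 172 CPM (median 45.5). Here the 6-week groups were the ones that stood apart, with log2 fold changes of -1.37 ± 0.24 at 4 weeks and -3.04 ± 0.25 at 6 weeks. ME1, the malic enzyme that supplies NADPH, fell by 1.05 and 1.51, ACACA, acetyl-CoA carboxylase, by 0.45 and 0.68, and FADS2, a desaturase of polyunsaturated fatty acids, by 0.77 and 0.67. FASN, fatty acid synthase, was called in opposite directions, with 0.48 ± 0.15 at 4 weeks and -1.03 ± 0.15 at 6 weeks. SREBF1, which encodes an SREBP factor, changed by -2.34 ± 0.17 at 4 weeks and 0.10 ± 0.16 at 6 weeks. With library size alone 5 of the 16 members were shared falls, and with the marker covariates 4.

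**Figure D3:**
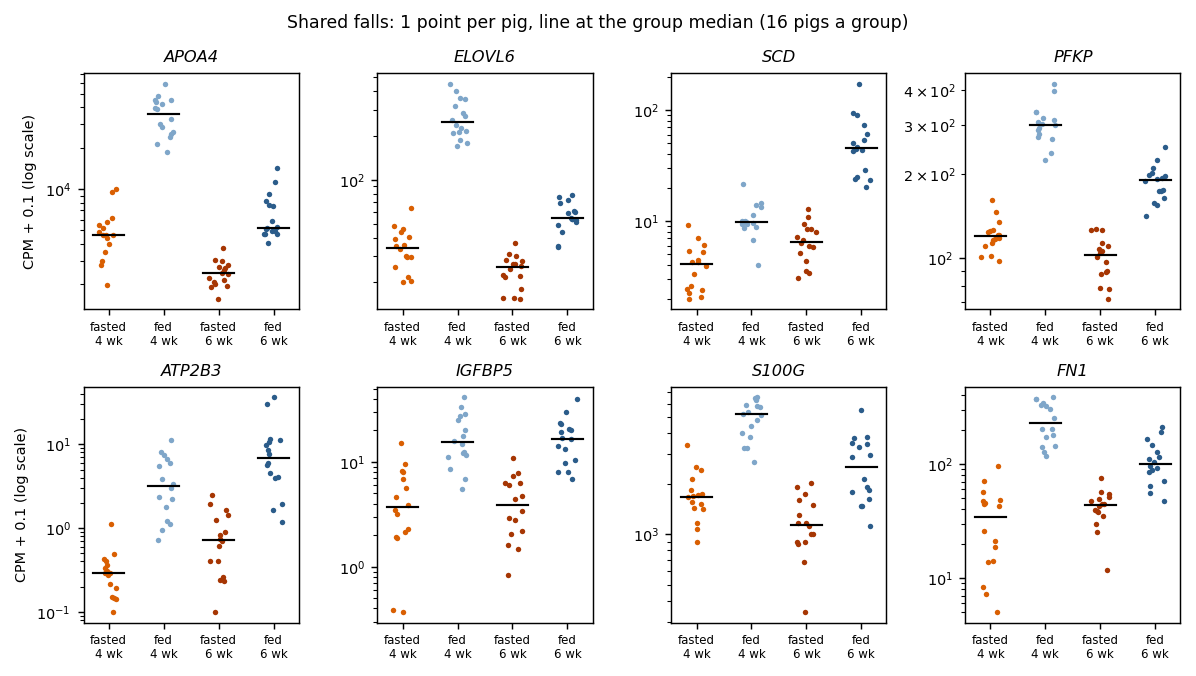
Levels of 8 shared falls in CPM plus 0.1 on a log scale, with 1 point per pig, 16 pigs a group and a line at the group median, fasted left of fed at each age. ELOVL6 medians were 34.4 CPM in fasted and 247 CPM in fed 4-week pigs and 25.2 CPM in fasted and 54.4 CPM in fed 6-week pigs, while SCD had its widest gap at 6 weeks.

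Sterol synthesis was shared for 3 of 19 tested members, all falls (15.8%, against 7.1% of all genes). CYP51A1, lanosterol demethylase, changed by -0.56 ± 0.20 and -0.93 ± 0.20, SC5D, a sterol desaturase, by -0.45 ± 0.19 and -1.08 ± 0.19, and NSDHL, another enzyme of the same branch, by -0.27 and -0.96. At 6 weeks 18 of the 19 fell, whereas at 4 weeks 7 rose and 3 fell. Over all genes, 18.4% fell at 6 weeks, and 33.9% rose and 29.4% fell at 4 weeks. No member was a shared fall with library size alone. Opposite calls were made for 6 of the 19, where 11.4% of all genes had them. All 6 were rises at 4 weeks and falls at 6 weeks. INSIG1, which holds SREBP factors in the endoplasmic reticulum, fell by 2.69 and 1.08. It was the 1 shared member of 16 sterol and lipid regulators (6.25%, near the 7.1% of all genes).

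The nuclear genes of the respiratory chain had the largest share of shared falls of the 35 pathway lists. Of 24 tested members 20 fell at both ages (83.3%, against 7.1% of all genes), with none rising at either age. The falls were small, with list medians of -0.31 at 4 weeks and -0.42 at 6 weeks on the log2 scale. NDUFB5, a subunit of complex I, had 13.1 to 21.7 CPM (median 15.2) in fasted 4-week pigs and 18.1 to 27.4 CPM (median 23) in fed 4-week pigs. Its level in fasted 6-week pigs was 13.5 to 23.5 CPM (median 17.6), and in fed 6-week pigs 15.6 to 29.9 CPM (median 25.4). Every fasted pig lay below the fed median of its age, and the log2 fold changes were -0.54 ± 0.08 and -0.50 ± 0.08. NDUFA4, a small subunit of the chain, changed by -0.63 ± 0.10 and -0.51 ± 0.10, UQCRFS1, the Rieske protein of complex III, by -0.69 and -0.47, and COX7B of complex IV by -0.65 and -0.31. With library size alone the median of the list at 4 weeks was -0.09 and 5 of the 24 members were shared falls, so this count depends on the TMM scaling at 4 weeks. With the marker covariates 22 of the 24 were shared falls.

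In the citric acid cycle 6 of 20 tested members fell at both ages (30%, against 7.1% of all genes) and none rose at both. SUCLA2, a subunit of succinyl-CoA synthetase, had medians of 34.8 CPM in fasted and 80.7 CPM in fed 4-week pigs and of 33.7 CPM in fasted and 61.4 CPM in fed 6-week pigs. The SUCLA2 fold changes were -1.24 ± 0.10 and -0.70 ± 0.10, and those of DLST, of the oxoglutarate dehydrogenase complex, -0.43 ± 0.07 and -0.60 ± 0.07. Glycolysis and pyruvate entry had 8 shared falls (28.6%, against 7.1% of all genes), 2 shared rises (7.14%, against 7.96%) and 5 opposite calls among 28 tested members. Beside PFKP, the falls included PFKFB3, which makes the activator of phosphofructokinase (by 0.76 and 2.14), TPI1 (by 1.14 and 0.58) and PGK1 (by 0.78 and 0.65).

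Secretory translocation and vesicle genes, which carry new proteins into the endoplasmic reticulum and on to the Golgi, had 21 shared falls among 35 tested members (60%, against 7.1% of all genes) and no shared rise. At 4 weeks 25 fell, where 29.4% of all genes did, and 2 rose, and at 6 weeks 29 fell, where 18.4% of all genes did, and none rose. KDELR3, a receptor that returns proteins to the endoplasmic reticulum, had 10 to 23.8 CPM (median 17.9) in fasted 4-week pigs and 82.3 to 201 CPM (median 139) in fed 4-week pigs. Fasted 6-week pigs had 16.6 to 35 CPM of KDELR3 (median 22), and fed 6-week pigs 24.9 to 71.9 CPM (median 32). The fed 4-week pigs stood far above the other 3 groups, and the log2 fold changes were -2.98 ± 0.14 and -0.53 ± 0.13. MCFD2, a cargo receptor subunit, changed by -1.17 ± 0.13 and -0.63 ± 0.13. All 5 named coat subunits of Golgi vesicles, COPA, COPB1, COPB2, COPG1 and ARCN1, fell, by 0.72 to 1.01 at 4 weeks and by 0.28 to 0.39 at 6 weeks. With library size alone 15 of the 35 members were shared falls.

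Endoplasmic reticulum folding had 8 shared falls (34.8%, against 7.1% of all genes) and 1 shared rise (4.35%, against 7.96%) among 23 tested members. DNAJB9, a co-chaperone, had 24.4 to 76.6 CPM (median 47.5) in fasted 4-week pigs and 54.1 to 154 CPM (median 91.2) in fed 4-week pigs. At 6 weeks it had 20.5 to 50.5 CPM (median 27.2) in fasted and 45.4 to 79.5 CPM (median 53.7) in fed pigs, and the log2 fold changes were -0.97 ± 0.13 and -0.89 ± 0.13. EDEM1 and SEL1L, of the pathway that degrades misfolded proteins, fell by 0.69 and 0.61 at 4 weeks and by 0.50 and 0.44 at 6 weeks. XBP1, a transcription factor of the unfolded protein response, fell by 0.31 and 0.37, while ERN1, the kinase that splices it, rose by 0.11 and 0.15. ERN1 was no longer shared under DESeq2 size factors, with library size alone or with the marker covariates. HSPA5, the main chaperone of the compartment, changed by -0.24 ± 0.15 at 4 weeks (adjusted p = 0.17, edgeR) and by -1.66 ± 0.16 at 6 weeks. At 6 weeks 19 of the 23 fell, where 18.4% of all genes did, and at 4 weeks 11 fell, where 29.4% did. The difference between those counts was not tested.

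Mineral and metal handling had 7 shared falls (31.8%, against 7.1% of all genes) and 2 shared rises (9.09%, against 7.96%) among 22 tested members. S100G, the calcium-binding protein calbindin-D9k of enterocytes, had 893 to 3417 CPM (median 1677) in fasted 4-week pigs and 2684 to 6547 CPM (median 5170) in fed 4-week pigs. At 6 weeks fasted pigs had 345 to 2010 CPM (median 1138), against 1116 to 5508 CPM (median 2515) in fed 6-week pigs. All fasted pigs lay below the fed median of their age, and the log2 fold changes were -1.48 ± 0.19 and -1.15 ± 0.19. VDR, the vitamin D receptor, fell by 1.12 and 1.21, and ATP2B1, the calcium pump of the basolateral membrane, by 0.79 and 0.66. SLC11A2, the iron importer, fell by 2.26 and 1.04, and SLC39A4, a zinc importer, by 1.63 and 1.06. The rises were MT3 and SLC20A1, a phosphate transporter, which rose by 1.37 and 0.20.

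Vitamin A handling had 5 shared falls (26.3%, against 7.1% of all genes) and 1 shared rise (5.26%, against 7.96%) among 19 tested members. LRAT, which stores retinol as esters, fell by 1.16 and 0.44, and BCO2, a carotenoid-cleaving enzyme, rose by 0.61 and 0.60. ALDH1A3, which makes retinoic acid, changed by -1.21 ± 0.25 and -0.69 ± 0.24, but with the marker covariates its estimates turned to 0.11 and 0.04. Antioxidant genes had 4 shared falls (14.8%, against 7.1% of all genes) and 2 shared rises (7.41%, near the 7.96% of all genes) among 27 tested members. SRXN1, sulfiredoxin, had 25.3 to 87.9 CPM (median 43) in fasted 4-week pigs, against 56 to 131 CPM (median 93.2) in fed 4-week pigs. In 6-week pigs SRXN1 had 16.2 to 42.7 CPM (median 27.2) when fasted and 43.3 to 145 CPM (median 61) when fed, with no overlap. NQO1, a quinone reductase, changed by 0.74 ± 0.19 and 0.50 ± 0.19, and its 6-week call was lost with library size alone, with no filter and with limma-voom. NFE2L2, the factor known to drive both SRXN1 and NQO1, rose by 0.30 and 0.28.

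Among 18 tested clock genes 2 rose and 1 fell at both ages, where 7.96% of all genes rose and 7.1% fell. NPAS2, a partner of BMAL1, had 18 to 58.9 CPM (median 36.9) in fasted 4-week pigs and 16.5 to 38.4 CPM (median 22.4) in fed 4-week pigs. For NPAS2, fasted 6-week pigs had 43.8 to 85.9 CPM (median 57), against 25.1 to 41.4 CPM (median 29.8) in fed 6-week pigs, with no overlap. PER1, a clock repressor that glucocorticoids raise, had medians of 166 CPM in fasted and 66.5 CPM in fed 4-week pigs and of 106 CPM in fasted and 69.9 CPM in fed 6-week pigs. The log2 fold changes were 0.64 ± 0.12 and 0.93 ± 0.12 for NPAS2 and 1.42 ± 0.17 and 0.50 ± 0.16 for PER1. Of 17 tested glucocorticoid targets PER1 and ANGPTL4 were the shared members, both rises (11.8%, against 7.96% of all genes). FKBP5, a feedback chaperone of the glucocorticoid receptor, had 69.1 to 197 CPM (median 126) in fasted and 35.7 to 64.3 CPM (median 50.1) in fed 4-week pigs, with no overlap. At 6 weeks FKBP5 had medians of 60.5 CPM in fasted and 60 CPM in fed pigs and a log2 fold change of 0.03 ± 0.12 (adjusted p = 0.83). The hour of slaughter is not given in the labels, so its part in the clock genes was not tested.

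Autophagy regulators had 1 shared rise (3.57%, against 7.96% of all genes) and 3 shared falls (10.7%, against 7.1%) among 28 tested members, both near the share over all genes, and 10 opposite calls. TFEB, a master regulator of lysosome genes, changed by 0.36 ± 0.12 and 0.52 ± 0.12, and its relative TFE3 fell by 0.22 and 0.19. TP53INP2, an autophagy adaptor, had medians of 81 CPM in fasted and 218 CPM in fed 4-week pigs and of 44 CPM in fasted and 82.9 CPM in fed 6-week pigs. At 4 weeks 15 of the 28 fell and 1 rose, where 29.4% and 33.9% of all genes did. At 6 weeks 20 rose and 4 fell, where 22.7% and 18.4% of all genes did. Lysosomal hydrolases and membrane proteins had 3 shared falls among 27, where 7.1% of all genes fell, GLA (alpha-galactosidase) with -0.92 ± 0.10 and -0.53 ± 0.10 and the proton pump subunits ATP6V1H and ATP6V1A. The ATF4 and amino acid stress list had 23 tested members. CHAC1 was its shared rise (4.35%, against 7.96% of all genes). PHGDH, PSAT1 and TRIB3 were its shared falls (13%, against 7.1% of all genes). It also had 9 opposite calls, where 11.4% of all genes had them. PHGDH, which opens serine synthesis, changed by -1.08 ± 0.40 and -3.01 ± 0.41, and its 4-week call was lost with library size alone, with limma-voom and with the marker covariates.

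Peptide and amino acid transport had 2 shared rises among 23 tested members (8.7%, near the 7.96% of all genes), the aromatic amino acid transporter SLC16A10 with 1.07 and 1.30 and the cationic amino acid exchanger subunit SLC7A7 with 0.68 and 0.87. SLC15A1, the peptide transporter PEPT1, had medians of 553 CPM in fasted and 549 CPM in fed 4-week pigs and of 1072 CPM in fasted and 1104 CPM in fed 6-week pigs. Its log2 fold changes of 0.05 ± 0.15 and -0.08 ± 0.15 did not pass the test. SLC5A1, the sodium-glucose transporter, likewise had 0.27 ± 0.16 and -0.08 ± 0.16, and SI, sucrase-isomaltase, had -0.43 ± 0.19 at 4 weeks (adjusted p = 0.038) and 0.08 ± 0.19 at 6 weeks. None of 13 tested brush border peptidases was shared, where 15.1% of all genes were. LGR5, a crypt stem cell marker, had 1.09 ± 0.35 at 4 weeks and 0.41 ± 0.37 at 6 weeks (adjusted p = 0.39). None of 18 tested crypt markers was shared, where 15.1% of all genes were. At 4 weeks 13 of the 18 crypt markers rose and 3 fell, where 33.9% and 29.4% of all genes did. At 6 weeks 0 rose and 1 fell, where 22.7% and 18.4% of all genes did. MUC2, the goblet cell mucin, was called in opposite directions, with 0.36 ± 0.15 and -0.43 ± 0.15.

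Several lists had many calls at each age, most of which were not shared. Over all genes tested, 33.9% rose at 4 weeks, 18.4% fell at 6 weeks and 33.3% were higher in the contrast averaged over ages. Interferon-stimulated genes were higher in the contrast averaged over ages for 30 of 32 tested members, yet 31 rose at 4 weeks, 19 fell at 6 weeks and none was shared. Their median log2 fold change was 2.14 at 4 weeks and -0.54 at 6 weeks. Ribosome assembly had 26 of 27 members rising at 4 weeks and 12 falling at 6 weeks. In the cell cycle list 24 of 27 rose at 4 weeks and 9 fell at 6 weeks. CCND1, cyclin D1, was the 1 shared gene (3.7%, against 7.1% of all genes), a fall of 0.45 and 0.97. Aminoacyl-tRNA synthetases had 2 shared rises, KARS1 and QARS1 (10.5%, near the 7.96% of all genes), and 9 opposite calls among 19. Cytosolic heat shock and chaperonin genes had 13 opposite calls among 22, all of them rises at 4 weeks and falls at 6 weeks. Their 2 shared falls (9.09%, near the 7.1% of all genes) were the co-chaperones BAG3 (by 0.59 and 0.79) and DNAJB1 (by 0.43 and 0.35). Over all genes tested the share of opposite calls was 11.4% and the share of shared genes 15.1%.

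**Figure D4:**
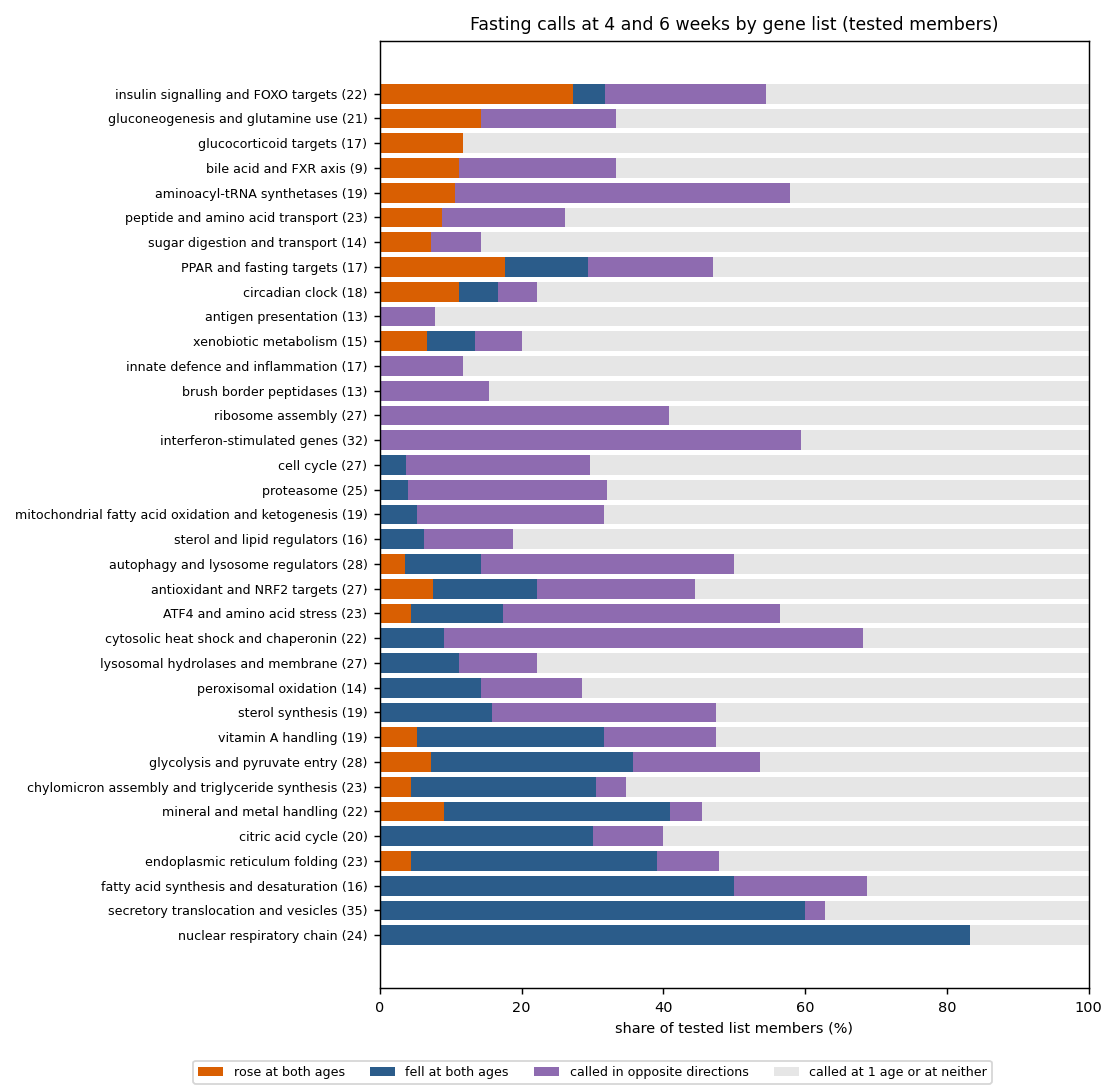
Share of the tested members of each pathway list, in percent and with the number tested in brackets, that rose at both ages (orange), fell at both ages (blue), were called in opposite directions (purple) or were called at 1 age or neither (grey). The nuclear respiratory chain has 83.3% shared falls and the insulin and FOXO list 27.3% shared rises, while interferon-stimulated genes have opposite calls and no shared member.

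Many genes of smooth muscle and stroma, and some of vessels, fell at both ages. Of 13 smooth muscle markers 8 were shared falls (61.5%), of 14 fibroblast markers 8 (57.1%), and of 11 endothelial markers 3 (27.3%), against 7.1% of all genes, with no shared rise in any of these lists. ACTG2, the actin of gut smooth muscle, had 2.65 to 42.2 CPM (median 10.9) in fasted 4-week pigs and 27.8 to 179 CPM (median 91) in fed 4-week pigs. Fasted 6-week pigs had 3.45 to 25.9 CPM of ACTG2 (median 18.1), and fed 6-week pigs 20.8 to 92.1 CPM (median 47). Most fasted pigs lay below the fed range, and the log2 fold changes were -2.95 ± 0.29 and -1.53 ± 0.28. Actin genes are near copies of each other, so the split of reads between ACTG2, ACTC1 and ACTA2 is uncertain. FN1, fibronectin, had 4.96 to 96.8 CPM (median 34.2) in fasted 4-week pigs and 118 to 384 CPM (median 229) in fed 4-week pigs. At 6 weeks it had 11.7 to 75.2 CPM (median 43.5) in fasted and 47.5 to 212 CPM (median 99.9) in fed pigs, and the log2 fold changes were -2.81 ± 0.28 and -1.37 ± 0.27. CNN1, calponin of smooth muscle, changed by -2.39 ± 0.29 and -1.22 ± 0.28, COL1A2, a chain of collagen I, by -1.56 ± 0.29 and -0.97 ± 0.28, and KDR, a VEGF receptor of endothelium, by -1.90 ± 0.19 and -0.75 ± 0.19. EMCN, endomucin of the endothelial surface, changed by -1.82 ± 0.23 and -0.92 ± 0.23. COL1A2, EMCN and KDR were no longer shared with the marker covariates described next.

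The marker sums are made of the members of these lists, ACTG2, CNN1, FN1 and COL1A2 among them. They describe the same genes and are not a separate result. The 13 smooth muscle markers summed to 50.4 to 387 CPM (median 175) in fasted and 254 to 934 CPM (median 509) in fed 4-week pigs, and to 74.1 to 329 CPM (median 213) in fasted and 201 to 604 CPM (median 350) in fed 6-week pigs, with none of them at a median of 0. The 15 fibroblast markers summed to 80.6 to 2443 CPM (median 646) in fasted and 1032 to 3481 CPM (median 1922) in fed 4-week pigs, and to 358 to 1603 CPM (median 1040) in fasted and 878 to 3240 CPM (median 1752) in fed 6-week pigs. Scraping depth is not recorded in the labels, and its part in these falls was not tested. When the mean marker level of smooth muscle and that of B cells were added to the model, 1067 genes rose and 946 fell at both ages, among them 606 of the 1120 rises (54.1%) and 663 of the 998 falls (66.4%). Under these covariates 2 smooth muscle markers fell and 3 rose at both ages, which for this list adjusts the markers for themselves. Of the fibroblast markers 1 fell and 1 rose at both ages, and of the endothelial markers none fell and 3 rose, with endothelial medians turning to 0.27 at 4 weeks and 0.34 at 6 weeks. The respiratory chain had 22 shared falls and the secretory list 18 under the same covariates. APOA4, APOC3, ELOVL6, SCD, PFKP, MT1X, EDN1 and KLF15 were shared under each of the 8 alternatives other than the 1.5-fold threshold, as were 45 of the 67 shared genes named by the rules used here.

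T cell and cytotoxic lymphocyte markers rose at both ages for 3 of 12 (25%) and 3 of 14 (21.4%) tested members, against 7.96% of all genes, with no fall at either age. CCL5, a chemokine of cytotoxic cells, had 130 to 490 CPM (median 209) in fasted 4-week pigs and 80.5 to 246 CPM (median 126) in fed 4-week pigs. In fasted 6-week pigs CCL5 had 251 to 585 CPM (median 421), and in fed 6-week pigs 118 to 519 CPM (median 278). The ranges overlapped at both ages, and the log2 fold changes were 0.81 ± 0.17 and 0.53 ± 0.17. KLRK1, the receptor NKG2D, changed by 0.88 ± 0.20 and 0.65 ± 0.19, and TRAT1, an adaptor of the T cell receptor, by 0.48 ± 0.15 and 0.42 ± 0.15. The 12 T cell markers summed to medians of 342 CPM in fasted and 234 CPM in fed 4-week pigs, and of 615 CPM in fasted and 484 CPM in fed 6-week pigs. The 6-week call of TRAT1 was lost under no filter, and CCL5 and TRAT1 lost their 4-week call with the marker covariates. Under each of the 8 alternatives other than the 1.5-fold threshold, none of the 3 T cell rises stayed shared. Of the 3 cytotoxic rises only KLRK1 did. Of 10 tested B cell markers 5 rose at 4 weeks, where 33.9% of all genes did, none was called at 6 weeks and none was shared. Over all genes 41.1% were called at 6 weeks and 15.1% were shared. Of 17 tested enteroendocrine markers CCK, cholecystokinin, and GHRL, ghrelin, were shared falls (11.8%, against 7.1% of all genes). They fell by 0.70 and 1.40 at 4 weeks and by 0.34 and 0.77 at 6 weeks.

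**Figure D5:**
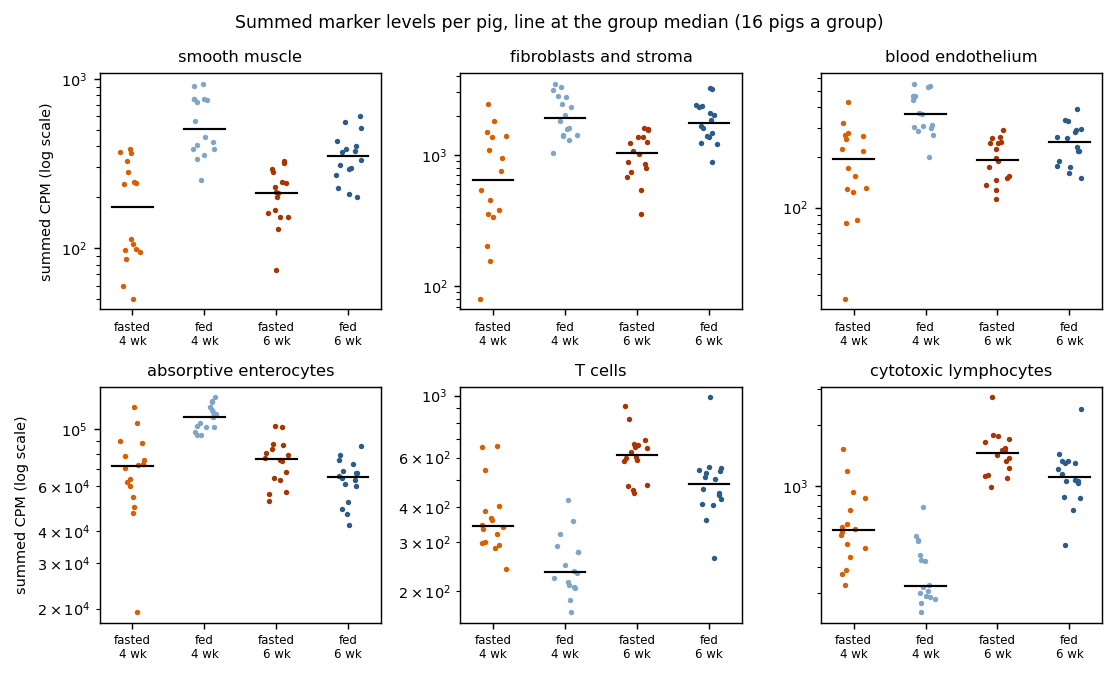
Summed CPM of 6 cell type marker lists per pig on a log scale, with 1 point per pig, 16 pigs a group and a line at the group median, fasted left of fed at each age. Smooth muscle markers had medians of 175 CPM in fasted and 509 CPM in fed 4-week pigs and of 213 CPM in fasted and 350 CPM in fed 6-week pigs, while T cell markers had higher medians in fasted than in fed piglets at both ages.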

How the data were processed

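Values are read counts per gene as deposited by the authors, 1 file per piglet. The submitters' processing notes name STAR, HTSeq and the build Sscrofa11.1. Versions, annotation, strand setting and filters are not given in the sources used here. The 5 HTSeq rows that name no gene entered neither library sizes nor tests. As shares of all reads listed in a file they held 4.841% to 8.889% of reads outside genes, 5.5% to 7.64% of reads on several genes and 2.729% to 4.068% of reads with several places. Of 31908 gene identifiers 15029 were paired with a symbol, and places come from RefSeq Sscrofa11.1, matched by symbol.

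Counts from all 64 libraries were fitted with edgeR 4.0.16 in R 4.3.3 (TMM factors, default low-count filter leaving 14062 genes, robust quasi-likelihood, 1 mean per group), with contrasts at 4 weeks, at 6 weeks, averaged over ages and between ages. Each fold change is followed by its SE, taken as its size over the square root of the F statistic. The biological coefficient of variation was 0.289, and p-values measure the spread between piglets. The model had no term for pen or litter and treated piglets as independent, although those of 6 weeks were housed in pairs. Alternatives used DESeq2 1.42.0, limma 3.58.1, other scalings, filters, pigs and covariates. The smooth muscle and B cell covariates were chosen because these markers were known to move.

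The members, the 56 gene lists and the tests were chosen with earlier results of these data known. Named were the 12 rises and 12 falls whose smaller fold change of the 2 ages was largest, among genes with a symbol, a log2 CPM averaging 1 or more and no role as immunoglobulin, T cell receptor, ribosomal protein or mitochondrially encoded gene, the 2 largest shared members of each list with at least 3 shared and 5 tested members, and a set of 26 genes whatever their result, of which 24 were tested. Further list members, the 8 separated genes and their values were added after their values were seen. A promoter motif search was planned and not run, since no sequence was used here. Some genes that these rules name are not reported here.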

Additional observations from a re-analysis of the deposited data

Results flagged for a closer look

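The size of the shared response differed between the ages for 23 of the shared genes that the naming rules picked and that are reported here. This was by the test of the difference itself (edgeR, adjusted p under 0.05), while 53.7% of all genes tested had such a difference. Further list members and separated genes that those rules do not name were not counted. Some of them, such as ACSL3 and INSIG1, also passed that test. Values are the log2 fold change at 6 weeks minus that at 4 weeks, so that for a fall a positive value means a smaller fall at 6 weeks.

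Among the genes counted, rises that were smaller at 6 weeks were EDN1 (-2.28) and PER1 (-0.92), and FBXO32 (0.61) was a rise that was larger at 6 weeks. Falls that were larger at 6 weeks were PHGDH (-1.93), SCD (-1.67) and SC5D (-0.64). Falls of lipid transport and synthesis that were smaller at 6 weeks were ELOVL6 (1.71), APOC3 (1.66) and APOA4 (1.36). Those of muscle, stroma and vessels were ACTC1 (2.03), FN1 (1.43), ACTG2 (1.42), CNN1 (1.18), KDR (1.16) and EMCN (0.90). The remaining falls among the genes counted that were smaller at 6 weeks were KDELR3 (2.45), PRSS22 (0.97), TP53INP2 (0.64), MCFD2 (0.55), SUCLA2 (0.54), PFKP (0.44), GLA (0.39) and ATP6V1H (0.32).

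Reads that fell outside annotated genes, which no comparison used, averaged a larger share in fasted piglets, with a wider gap at 4 weeks than at 6. They averaged 6.82% ± 0.66 in fasted and 5.33% ± 0.331 in fed 4-week pigs, and 7.22% ± 0.583 in fasted and 6.93% ± 0.533 in fed 6-week pigs (SD, 16 pigs each). At 4 weeks the ranges overlapped only at their edges, with 5.994% to 8.889% in fasted and 4.841% to 6.068% in fed pigs. At 6 weeks they overlapped widely, with 6.335% to 8.316% in fasted and 5.898% to 7.94% in fed pigs. The part of this share in the gene calls was not tested.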

How the results depend on the processing

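Shared rises and falls numbered 1020 and 1093 with DESeq2 size factors, 1398 and 681 with library size alone, 820 and 1036 with no filter, 1056 and 1137 with DESeq2, 1030 and 1020 with limma-voom, and 1069 and 1047 with each age fitted alone. Of the shared genes 448 rises and 400 falls were called in all 8 of these fits and those without 3 pigs or with marker covariates. Counts moved by over 1.5 times as follows. With library size alone 2518 genes fell at 4 weeks and 2213 had a higher response at 6 weeks. Against a 1.5-fold threshold 408 rose and 481 fell in the average over ages, 1564 rose and 1218 fell at 4 weeks, 172 rose and 163 fell at 6 weeks, 1111 and 1562 differed upward and downward between ages, and 34 rises and 43 falls were shared. An adjusted p under 0.01 at each age gave 684 and 622 shared genes, and a call on the average with the same sign at both ages gave 3199 and 2688. With the marker covariates ALDH1A3 turned to 0.08 averaged over ages, 0.11 at 4 weeks and 0.04 at 6 weeks. The marker covariates lost 15 of the 67 named shared calls, library size alone 5, and the 1.5-fold threshold 42. The cause was not tested, except that a 1.5-fold threshold asks for a larger change by construction.

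No paired analysis was possible because no 2 groups share a pig number. At 18774144 counts or more a library, depth limits mainly the genes near 0 CPM, such as TMEM252 in fed 4-week pigs.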
